A study of Mus musculus with 4 samples.

Results

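Plasmacytoid dendritic cells (pDC) were picked out of single-cell RNA libraries of immune cells from MC38 tumours, which grow from a mouse colon adenocarcinoma line. A barcode was taken as a pDC when it held at least 2 UMIs (counted RNA molecules) of Siglech, at least 1 of Tcf4 and 0 of Adgre1, Cd3d, Cd3e, Cd3g and Ms4a1. Siglech encodes a pDC lectin, Tcf4 the transcription factor E2-2, and the genes required to be at 0 mark macrophages, T cells and B cells. The cells were thus chosen by their own UMI counts of these 7 genes, which are described below and not tested. The rule was met by 99 of 44184 barcodes, after those under 200 genes or over 20% mitochondrial UMIs had been removed. The libraries came from 2 samples of wild-type (WT) hosts and 2 of knockout (KO) hosts. The sample labels name the genotypes only as WT and KO, and no promoter or Cre, age, strain or number of animals per library is given. All 4 libraries share the MC38 tumour, enzymatic digestion and magnetic enrichment of CD45+ cells. WT library 1 held 31 pDC, WT library 2 held 12, KO library 1 held 24 and KO library 2 held 32. Because the animals behind a library are not named, p-values reflect only how far these libraries lie apart, a spread that may be technical.

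pDC are a dendritic cell lineage set up by the E protein TCF4 and kept apart from conventional dendritic cells (cDC), whose programme depends on the E protein inhibitor ID2. They carry endosomal nucleic acid sensors, chiefly TLR7 and TLR9, and are known for very large bursts of type I interferon after a virus or self nucleic acid is sensed. They have a wide endoplasmic reticulum, present antigen less well than cDC, and in tumours are often described as producing little interferon.

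The libraries held 94213071 and 112472244 UMIs in WT and 130466357 and 104900918 in KO, and the pDC of a library together gave between 82041 and 259521 UMIs. A pDC had a median of 6183 UMIs, with 826 in the lowest and 24251 in the highest cell. Between 22 and 51 barcodes were shared by any pair of libraries, and 0 of them were pDC. Genes that mark macrophages were present at low levels in the pDC: 11 of the 12 listed had at least 1 UMI, and their summed level was 987 and 975 CPM (UMIs scaled to 1e6 per library and gate) in WT and 2629 and 1287 in KO.

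The label was checked against genes that the rule had not used. Of 10 further pDC genes, 93 of the 99 cells held at least 5, and no cell held fewer than 3. Bst2, the tetherin gene and the antigen of common pDC antibodies, had a UMI in 96 cells. Ccr9, a gut homing chemokine receptor, had one in 98 cells, Cox6a2, a cytochrome oxidase subunit, in 85, and Ly6d, a surface protein of early lymphoid cells, in 84. With every cell thinned to 2000 UMIs, which left 91 pDC, Ccr9 was found in 83.5% of pDC. It was found in 0.935% of cells gated as type 1 cDC (cDC1), 2.94% of type 2 cDC (cDC2), 0.0932% of macrophages and 0.104% of T cells. Ly6d was found in 80.2% of thinned pDC and in 0 cells of either cDC gate. Bst2 is less restrictive: all 91 thinned pDC held it, but so did 51.2% of thinned macrophages. C1qa, a complement gene of macrophages, was found in 20.9% of thinned pDC and 43.1% of T cells. Macrophages were gated on UMIs of Adgre1 and of C1qa itself, so their share of 95.6% was fixed by the gate. The pDC rule required Adgre1 at 0 while the T cell gate left it free, so the pDC and T cell shares are not alike. The source of the C1qa UMIs in pDC was not tested.

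**Figure D1:**
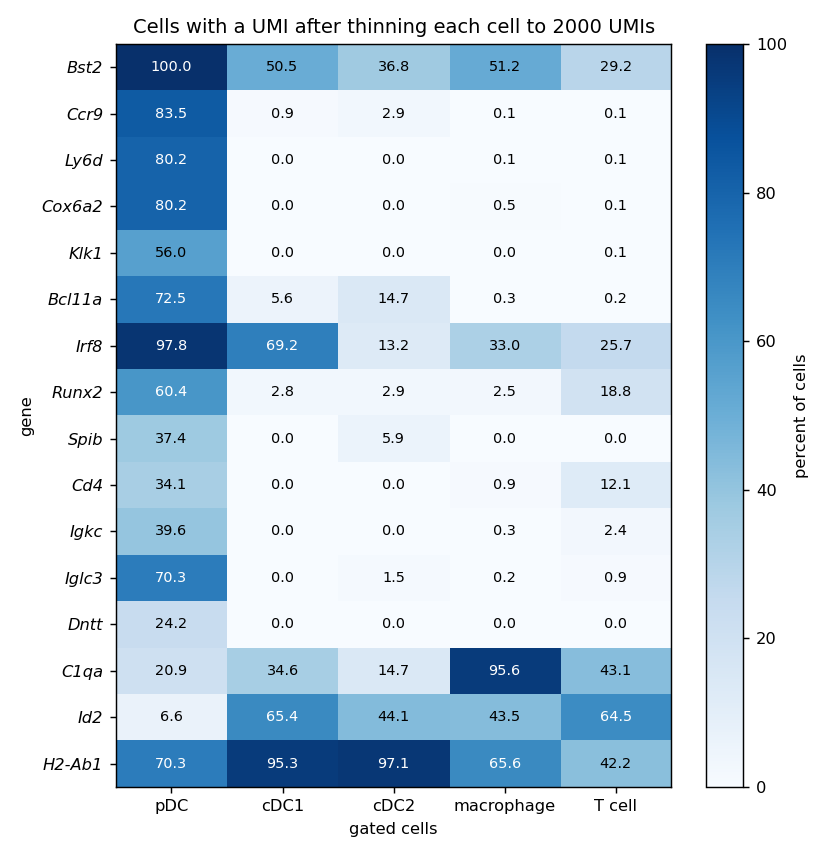
Percent of cells with at least 1 UMI of each gene (rows) after each cell was thinned to 2000 UMIs. The 5 gates are the columns, with all libraries pooled, and the macrophage gate itself required UMIs of C1qa. Ccr9, Ly6d, Cox6a2 and Iglc3 fill the pDC column at 70.3% or more and are at 2.94% or less in the others, while Id2 is at 6.59% in pDC and between 43.5% and 65.4% elsewhere.

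Cells on either side of the rule looked as follows. Only 2 cells entered with exactly 2 UMIs of Siglech. Another 14 cells had 1 UMI of Siglech and passed all else; 5 of these held Ccr9, 2 held Ly6d and 0 held Cox6a2. Another 14 had enough Siglech and Tcf4 but at least 1 UMI of Adgre1, the macrophage gene F4/80. Of these 14, 13 held Ccr9 and 12 held Cox6a2. Their UMIs of the Cd3 genes and Ms4a1 were not checked, so Adgre1 need not be all that kept them out. A further 3 had enough Siglech and no Tcf4, and 1 of these held Ccr9.

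pDC were rare in all 4 tumours' libraries. Their share of kept barcodes was 0.358% in WT library 1 (95% exact binomial interval 0.243 to 0.508%, counting error only) and 0.136% in WT library 2 (0.0704 to 0.238%). It was 0.139% in KO library 1 (0.0894 to 0.207%) and 0.337% in KO library 2 (0.231 to 0.475%). Each genotype thus had 1 library near 0.14% and 1 near 0.34%, and the groups overlapped fully. The WT mean was 0.247 ± 0.157% and the KO mean 0.238 ± 0.140% (SD over 2 libraries), with p = 1 in a two-sided exact permutation test whose smallest possible p is 0.333. No difference of any size could pass 0.05 in this design. The sign of the KO minus WT difference (-0.00877 percentage points) was not stable, at 0.00741 with cells thinned to 2000 UMIs and 0.102 without WT library 1.

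**Figure D2:**
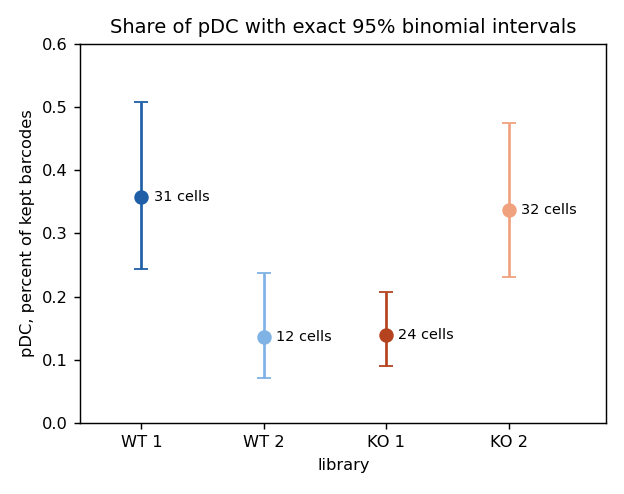
pDC as a percent of kept barcodes (vertical axis) in each library, with exact 95% binomial intervals as bars. WT 1 and KO 2 lie at 0.358% and 0.337%, and WT 2 and KO 1 at 0.136% and 0.139%, so the genotypes overlap.

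The pDC were next set against the conventional dendritic cells of the same libraries, to describe how this lineage differs from its nearest relatives. cDC2 were gated on Cd209a and Flt3 (68 cells) and cDC1 on Xcr1 and Clec9a (111 cells), with Siglech at 0 in both. The median depth of a library's pDC ran from 4989.5 to 7216.5 UMIs, that of cDC1 from 9170 to 14739 and that of cDC2 from 6727.5 to 10518. KO library 2 held only 3 cDC2. UMIs were summed per library and gate and fitted across all genes with edgeR, with the library as a block. Genes used in a gate were not read as results. A gene could pass the filter for low counts through its level in a single gate. Where the other gate was near 0, as for Igkc and Ly6d in the cDC, the direction was partly fixed by the filter. Against cDC2, 453 of 2505 genes tested were higher in pDC (18.1%) and 407 lower (16.2%) at an adjusted p under 0.05. Against cDC1, 657 of 3461 were higher (19%) and 568 lower (16.4%). Scaling by total counts in place of TMM moved the median of all genes by 0.13 and 0.18 log2 and the splits to 547 higher and 324 lower against cDC2 and 822 and 430 against cDC1.

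Genes that are better known from lymphocytes were among the most pronounced features of the pDC. Igkc, the kappa light chain constant gene, stood at 337 and 329 CPM in WT and 745 and 458 CPM in KO pDC, and gave 0 UMIs in both cDC gates. Against a floor of 3 UMIs over all cDC libraries, this was at least 109-fold higher than in cDC2 and at least 215-fold higher than in cDC1. Iglc3, a lambda light chain constant gene, stood at 873 and 756 CPM in WT and 1206 and 670 CPM in KO, with 1 UMI in all cDC2 and 2 in all cDC1; the lambda constant genes are near copies, so the split between Iglc2 and Iglc3 is uncertain. Ighm, the IgM heavy chain gene, was at 717 ± 44.2 CPM in pDC (SD, n = 4 libraries), 58.8 ± 11.2 in cDC2 and 40.3 ± 18.0 in cDC1, a log2 difference of 3.48 and 3.97 (edgeR, adjusted p = 1.96e-11 and 2.12e-08). A UMI of at least 1 of Igkc, Iglc3 and Ighm was present in 98 of the 99 cells, and both Igkc and Iglc3 in 48. Of other listed B cell genes, Cd79b, a signalling chain of the B cell receptor, gave 37 UMIs in 26 cells and Ighd, the IgD heavy chain gene, 5 UMIs in 5 cells, while Cd79a, Pax5 and Ebf1 gave 0 UMIs in the pDC. A count of 0 in 99 cells allows up to 3.03% of cells with a UMI.

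T cell coreceptors showed the same form. Cd8b1, the CD8 beta chain, was at 809 and 609 CPM in WT and 796 and 613 CPM in KO pDC, with 1 UMI in all cDC2; the log2 difference from cDC2 was 8.32 (edgeR, adjusted p = 1.14e-13). Cd4 was at 322 and 219 CPM in WT and 352 and 231 CPM in KO, and gave 0 UMIs in cDC2, so it was at least 66.5-fold higher in pDC. Cd8a or Cd8b1 was found in 78 cells, Cd4 in 63, and Cd4 together with a CD8 chain in 57. The T cell kinase gene Lck gave 0 UMIs, and the T cell receptor genes Trac, Trbc1 and Trbc2 gave 2, 2 and 1 UMIs over all 99 cells. Cd3 genes were at 0 by the rule. Dntt, the terminal transferase that adds bases at antigen receptor junctions in lymphoid progenitors, had a UMI in 56 cells and none in either cDC gate. Klk1, a tissue kallikrein, was at 1156 and 2011 CPM in WT and 1733 and 724 in KO and at least 285-fold and 562-fold above cDC2 and cDC1, although reads of near copies such as Klk1b27 may be split.

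Positions in GRCm38 (mm10), from GENCODE M21, are as follows for genes the results turn on, each named as a whole protein-coding gene. Siglech lies at chr7:55768178-55778925 on the plus strand and Klk1 at chr7:44225360-44229618 on the plus strand. Ccr9 lies at chr9:123678439-123784330 on the plus strand and Ly6d at chr15:74762056-74763620 on the minus strand. Dntt lies at chr19:41029275-41059525 on the plus strand, Klf2 at chr8:72319033-72321656 on the plus strand and Cd209d at chr8:3871824-3878555 on the minus strand.

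Transcription factors separated the lineages in both directions. Of 11 measured factors that favour the pDC fate, Tcf4 aside, 8 were higher and 1 lower than in cDC2. Against cDC1, 7 of them were higher and 0 lower. Their median log2 difference was 1.51 and 1.24, against -0.002 and 0.004 over all genes tested. A factor could pass the filter through its level in the pDC, as Spib did against cDC1, so this direction was partly fixed by the filter. Irf8, required for both pDC and cDC1, was at 3268 ± 280.1 CPM in pDC, 1246 ± 175 in cDC1 and 78.6 ± 63.0 in cDC2 (SD, n = 4 libraries each). The 3 ranges did not overlap. Bcl11a, a zinc finger factor that sustains Tcf4, was at 626 ± 150.2 CPM in pDC, 94.95 ± 53.65 in cDC2 and 37.3 ± 9.48 in cDC1, and Runx2, which helps pDC leave the bone marrow, at 515 ± 96.5, 33.4 ± 24.3 and 7.09 ± 5.84. Spib, an ETS family factor of pDC and B cells, was at 200.3 ± 56.8 CPM in pDC and gave 0 UMIs in cDC1, at least 100.7-fold lower. The exception was Cbfa2t3, the corepressor ETO2, at 142 ± 56.9 CPM in pDC and 224 ± 32.2 in cDC2, with overlapping ranges.

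Factors of conventional dendritic cells were low. Of the 10 listed, all 3 tested against cDC2 and all 6 tested against cDC1 were lower in pDC. Their median log2 difference was -2.19 and -2.35. Only 2 of the 10 passed the filter for low counts in the pDC libraries alone. A gene could pass through its level in the cDC, so the direction was partly fixed by the filter. Id2, the E protein inhibitor, was at 24.8 and 12.2 CPM in WT and 126 and 42.4 CPM in KO pDC, against 355 ± 124 in cDC2 and 976 ± 161 in cDC1. The highest pDC library, KO 1, lay below the lowest cDC library. Batf3, required for cDC1, gave 1 UMI in all 99 pDC and was at 119 ± 35.4 CPM in cDC1, and Zbtb46, a factor of the cDC line, gave 5. Spi1, the PU.1 gene, was at 134 ± 43.8 CPM in pDC, 554 ± 119 in cDC2 and 430.1 ± 94.4 in cDC1.

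**Figure D3:**
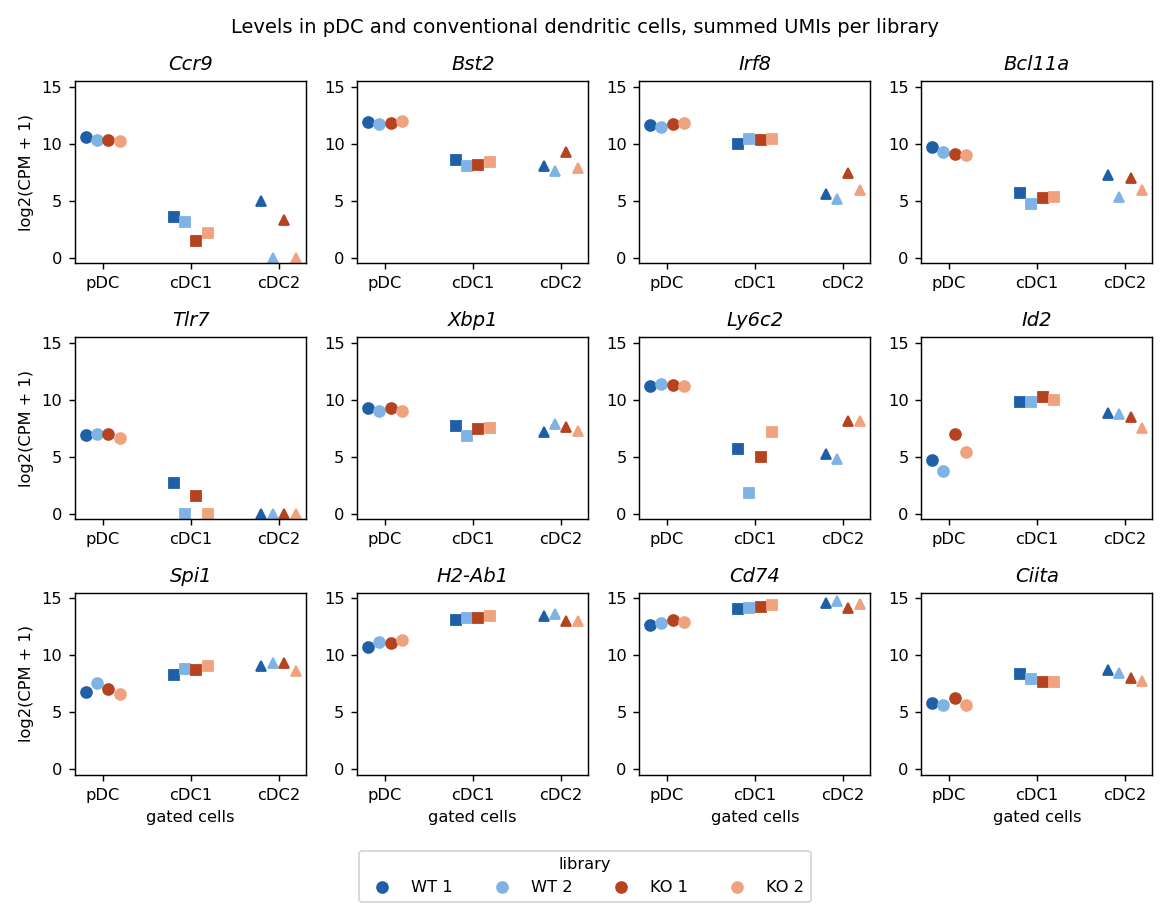
Levels of 12 genes in pDC (circles), cDC1 (squares) and cDC2 (triangles), as log2(CPM + 1) of the UMIs summed per library, with 1 point per library. Ccr9, Bst2, Irf8, Bcl11a, Tlr7, Xbp1 and Ly6c2 are highest in pDC in each of the 4 libraries, and Id2, Spi1, H2-Ab1, Cd74 and Ciita are lowest.

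Of the sensing machinery, 8 of 13 measured genes were higher and 2 lower than in cDC2 (median log2 difference 1.42). Against cDC1, 6 of 17 were higher and 1 lower (0.90). Genes near 0 in the cDC, such as Tlr7, passed the filter through the pDC, so for these the direction was partly fixed by the filter. Tlr7, the endosomal sensor of single-stranded RNA, was at 119 and 122 CPM in WT and 126 and 100.2 CPM in KO. The 4 pDC libraries differed by less than 30 CPM, and all lay above cDC2, which gave 0 UMIs (at least 26.95-fold lower), and cDC1, which gave 1.82 ± 2.57 CPM. Tlr9, the sensor of CpG DNA, gave 3 UMIs in 3 cells of WT library 1. Unc93b1, the chaperone that carries these receptors to the endosome, was at 658 ± 87.1 CPM in pDC against 164 ± 54.9 in cDC2 and 293 ± 67.6 in cDC1. Pld4, an endolysosomal exonuclease that trims ligands of these sensors, was at 1216 ± 53.1 CPM against 190.5 ± 48.6 and 218 ± 29.9. Irf7, the factor that amplifies interferon genes, was at 99.2 and 280.3 CPM in WT and 268 and 143 CPM in KO, was higher than in cDC2 (log2 1.51, edgeR adjusted p = 0.00251) and did not pass against cDC1 (log2 1.12, adjusted p = 0.112). Irf5, which drives inflammatory cytokines, was lower than in both (log2 -1.13 and -1.85).

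The interferon genes themselves were not seen. The 17 listed interferon genes, 14 of them Ifna genes with Ifnb1, Ifnl2 and Ifnl3, gave 0 UMIs in the 99 pDC. This allows up to 3.03% of pDC with a UMI of them. The Ifna genes are near copies, so their UMIs may be lost in counting, which this limit does not cover. Among the other barcodes Ifnb1 was at 0.0852 to 0.242 CPM per library. Il12b and Il10 also gave 0 UMIs, Il6 gave 1 and Tnf gave 16. Many type I interferon stimulated genes had few UMIs: of the 28 listed, 9 passed the filter for low counts between genotypes, 7 against cDC2 and 8 against cDC1. Ifit1, Ifit3 and Rtp4 gave 1 UMI each and Isg15 gave 55 in 18 cells. Of those tested, 4 were higher in pDC than in cDC2 (Irf7, Bst2, Stat2 and Trim30a) and 0 lower. Against cDC1, 3 were higher (Bst2, Stat2 and Trim30a) and 2 lower. Bst2 and Irf7 are also counted among the pDC and sensing genes above. The lower 2 were Zbp1, a sensor of Z-form nucleic acid (log2 -1.99), and Phf11b (-1.25). Stat2 and Trim30a were higher in pDC than in either cDC gate, by 1.72 and 1.49 log2 against cDC2 and 0.79 and 0.96 against cDC1. The receptor chains of these interferons, Ifnar1 and Ifnar2, were higher as well: Ifnar1 was at 366 ± 49.9 CPM in pDC, 41.7 ± 16.2 in cDC2 and 82.2 ± 16.1 in cDC1. Ifngr1, of the interferon gamma receptor, was lower, at 57.9 ± 7.66 CPM against 353 ± 157 and 160.0 ± 22.1.

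Antigen presentation on MHC class II was present but low. Of the measured class II genes 10 of 11 were lower than in cDC2 and 11 of 13 lower than in cDC1, with 0 higher (median log2 difference -1.96 and -1.52). H2-Ab1, a class II beta chain, was at 1712 and 2255 CPM in WT and 2227 and 2586 CPM in KO pDC, 10130 ± 2166 CPM in cDC2 and 9776 ± 989 in cDC1. Every pDC library lay below every cDC library. Cd74, the invariant chain, was at 7729 ± 839 CPM in pDC, 23930 ± 4038 in cDC2 and 19130 ± 1797 in cDC1. Ciita, the class II transactivator, was at 57.2 ± 12.4, 310.2 ± 94.7 and 247 ± 59.1 CPM. H2-Oa, a chain of the inhibitor of peptide loading, did not pass in either comparison, at 103 ± 21.6 CPM in pDC, 168 ± 123 in cDC2 and 90.3 ± 27.9 in cDC1. Class I genes were mixed: 7 of 17 were higher and 0 lower than in cDC2, while 6 were higher and 5 lower than in cDC1. H2-K1 was higher in pDC than in either (log2 1.05 in both), and Psmb9, an immunoproteasome subunit, was lower than in cDC1 (log2 -1.09).

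Costimulatory and tolerance genes were mostly near the floor. Cd86, a ligand of CD28, was at 28.2 ± 26.7 CPM in pDC, 174 ± 68.7 in cDC2 and 194 ± 59.7 in cDC1. Cd80 gave 5 UMIs in the pDC and Cd40 gave 6. Ido1, a tryptophan-degrading enzyme often named for tolerogenic pDC, gave 3 UMIs in 3 cells, Gzmb, a granzyme, 3 UMIs in 3 cells, and Cd274, the PD-L1 gene, 13 UMIs in 9 cells. Lag3, an inhibitory receptor, was higher than in cDC2 (log2 4.21) and cDC1 (log2 4.84), and was found in 70 of the 99 pDC.

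The endoplasmic reticulum programme was higher in pDC, with 12 of 16 measured genes higher and 1 lower than in cDC2 and 11 of 17 higher and 1 lower than in cDC1 (median log2 difference 1.13 and 0.77). Xbp1, the factor that widens the secretory apparatus, was at 620 and 512 CPM in WT and 628 and 524 CPM in KO, and at 179 ± 38.1 in cDC2 and 168 ± 40.5 in cDC1. Hsp90b1, the chaperone gp96, was at 1330 ± 252 CPM against 498 ± 228 and 639 ± 117, and Sec11c, a signal peptidase subunit, at 566 ± 42.2 against 222 ± 84.5 and 171 ± 22.4. The genes that were lower were Edem1 against cDC2 and Sdf2l1 against cDC1. Mzb1 gave 0 UMIs in the pDC.

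Receptors and homing genes set the lineage apart in both directions. Selplg, which encodes the adhesion ligand PSGL-1, was at 1181 ± 257 CPM against 311 ± 98.9 and 316 ± 68.7, and S1pr4, a sphingosine phosphate receptor, at 137 ± 17.9 against 8.67 ± 12.2 and 6.92 ± 3.40. Ccr1 was lower than in both, and Ccr7, which takes dendritic cells to lymph nodes, gave 4 UMIs. Among signalling receptors, 8 of 14 were higher and 2 lower than in cDC2 and 8 of 15 higher and 2 lower than in cDC1. Of those higher in both, Bst2, Lair1, Cd300c, Ptprs and Klra17 are also listed as pDC identity genes, as is Clec12a, higher than in cDC2. These counts thus partly repeat genes listed for being high in pDC. Blnk, an adaptor that links Siglec-H and related receptors to calcium signals, was at 223 ± 23.7 CPM in pDC, 8.80 ± 7.27 in cDC2 and 7.46 ± 13.2 in cDC1. Il7r was at 524 ± 121 CPM against 72.0 ± 56.2 and 80.9 ± 41.5. Kit and Csf2ra, growth factor receptors of the cDC line, were lower than in both.

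By size alone, the genes highest in pDC against cDC2 were Ly6d, Klk1, Cox6a2, Igkc, Mctp2, Cd4, Iglc3, Gm21762, Cd300c and Cd8b1, and against cDC1 Ly6d, Klk1, Gm21762, Igkc, Cd300c, Iglc2, Klk1b27, Atp1b1, Iglc3 and Spib. Ly6d stood at 2734 and 2791 CPM in WT and 3249 and 3522 CPM in KO and gave 0 UMIs in cDC, at least 748-fold higher than in cDC2 and at least 1476-fold higher than in cDC1. Those lowest against cDC2 were Plet1, Pak1, Klrb1b, Ifi205, Bcl2a1d, Ifitm1, Naaa, Ccl17, Bcl2a1a and Ms4a4c. Against cDC1 they were Plet1, Tlr3, Gcsam, Dbn1, Batf3, Itgae, Ccl22, Mki67, Naaa and Pclaf. Mki67 and Pclaf are genes of dividing cells. Of 18 listed cell cycle genes, all 3 measured against cDC2 and all 7 against cDC1 were lower in pDC. Only 2 of the 18 passed the filter for low counts in the pDC libraries alone, so this direction too was partly fixed by the filter. Tlr3, the sensor of double-stranded RNA, gave 0 UMIs in pDC and was at 77.9 ± 12.2 CPM in cDC1. Ly6c2 was higher in pDC by 4.54 log2 against cDC2 (adjusted p = 0.0228), but by 4.83 with adjusted p = 0.0674 without KO library 2; against cDC1 the difference was 5.65 (adjusted p = 0.0240), with adjusted p = 0.0784 without WT library 1 and 0.112 without KO library 1. Ifitm1 lost its call against cDC2 without either KO library (adjusted p = 0.0824 and 0.0691), and Ccl17 without WT library 1 (0.0870) or KO library 1 (0.0628).

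Genes varied among the pDC themselves to very different degrees. Ccl4, an inflammatory chemokine, was found in 46 of 99 cells, its highest cell held 122 UMIs, and the 18 cells with at least 10 UMIs held 92.2% of all its UMIs. It stood at 303 and 1268 CPM in WT and 3693 and 909 CPM in KO, and 1, 3, 7 and 7 of those 18 cells came from WT 1, WT 2, KO 1 and KO 2. The libraries of both genotypes overlap. The 18 cells had a median of 6865 UMIs against 6118 in the other 81. They held Cd69, an activation marker, in 13 of 18 cells against 14 of 81, and Klk1 in 17 of 18 against 51 of 81, and all 18 held Irf8 and Ccr9. Bcl11a, Pld4 and Tlr7 had highest cells of 12, 20 and 4 UMIs.

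Class II genes moved together from cell to cell: Spearman's rho on UMIs scaled for depth was 0.89 for H2-Aa and H2-Eb1, 0.86 for H2-Ab1 and Cd74 and 0.84 for H2-Aa and H2-Ab1, over 99 cells that share 4 libraries and differ in depth. The 10 cells with at least 100 UMIs of Cd74 held 38.8% of its UMIs and had a median of 11188 UMIs; 1, 1, 2 and 6 came from WT 1, WT 2, KO 1 and KO 2. All 10 held Irf8, Bst2 and Ccr9, and 9 held Ly6d.

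Above 12000 UMIs lay 7 cells, from all 4 libraries (1, 2, 1 and 3). They held 76.8% of the UMIs of S100a4, 69.3% of those of Il1b, 53.1% of those of Id2 and 38.4% of those of H2-Aa, but 7.62% of those of Siglech and 7.59% of those of Ly6d. These shares are not scaled for depth. In CPM, S100a4, Il1b, Id2 and H2-Aa were at 1220, 1683, 161 and 7139 in the 7 cells and 70.0, 142, 26.9 and 2175 in the other 92. Siglech and Ly6d were lower in the 7 cells, at 1040 and 1494 CPM against 2394 and 3456. Whether the 7 are single cells was not tested, since the doublet caller called at most 1 barcode per library. A last group of 15 cells, 6, 0, 5 and 4 by library, had no Ly6d. All 15 held Ccr9 and Irf8, 12 held Bst2 and 8 held Cox6a2, against 77 of the 84 cells with Ly6d, at median depths of 6636 and 6171 UMIs.

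**Figure D4:**
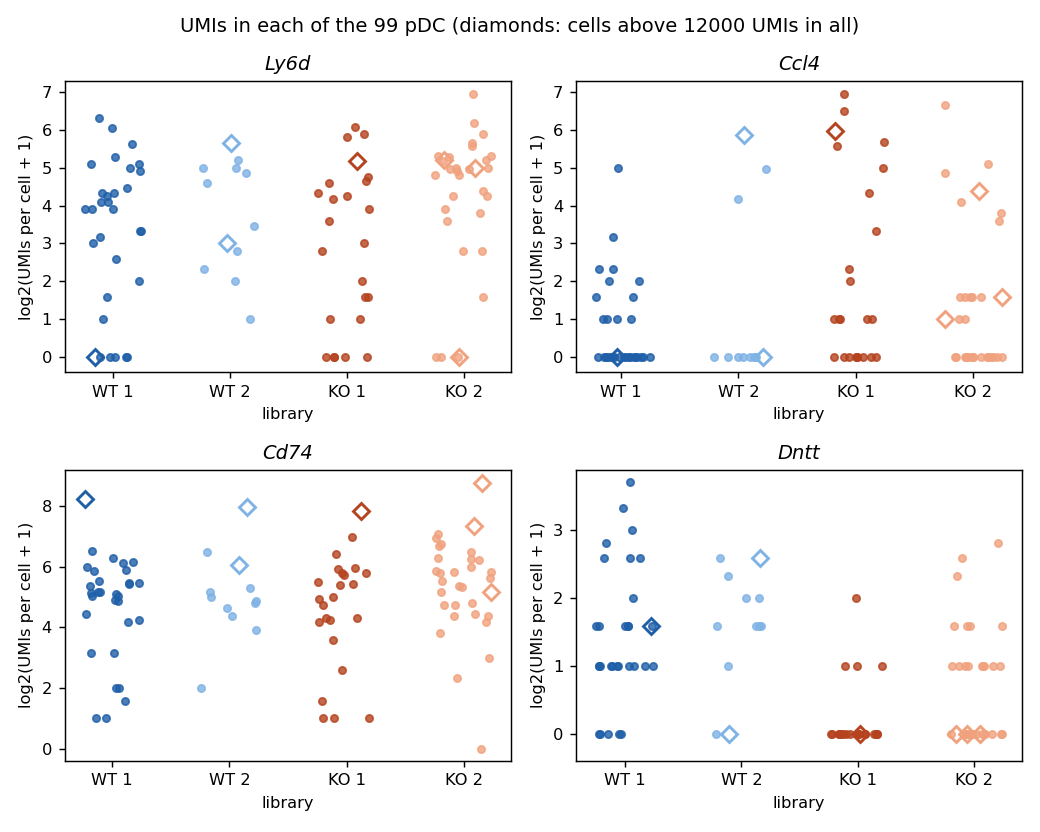
UMIs per cell of Ly6d, Ccl4, Cd74 and Dntt, as log2(UMIs + 1), for each of the 99 pDC by library, with cells above 12000 UMIs in all as diamonds. Ccl4 is at 0 in most cells and reaches 122 UMIs in 1 cell of KO 1, and Dntt was found in 26 of 31 and 10 of 12 WT cells and in 4 of 24 and 16 of 32 KO cells.

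The study's own contrast, KO against WT, was then read within the pDC. No gene passed: 0 of 2740 genes tested were higher (0.0%) and 0 lower (0.0%) at an adjusted p under 0.05 in edgeR. At an unadjusted p under 0.05, 93 were higher and 68 lower, and DESeq2 also called 0. The smallest library held 12 pDC. Other settings did make calls: 23 higher and 4 lower with no filter on low counts, 3 higher and 0 lower with the replicate number as a block, and 3 higher and 2 lower without the cells above 12000 UMIs. Leaving out WT 1, WT 2, KO 1 or KO 2 gave 8, 24, 6 or 25 higher and 6, 6, 5 or 2 lower. Of the pDC genes checked above, 3 are given here by library. Bst2 was at 3924 and 3425 CPM in WT and 3668 and 4007 CPM in KO, Irf8 at 3289 and 2877 and at 3375 and 3533, and Ccr9 at 1553 and 1268 and at 1273 and 1237. The ranges of Bst2 overlap; those of Ccr9 do too, and the KO libraries of Irf8 lie just above those of WT.

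Dntt had one of the smallest unadjusted p among genes lower in KO. It stood at 382 and 354 CPM in WT and at 50.2 and 123 CPM in KO, so both KO libraries lay below both WT libraries. The log2 difference was -1.93 ± 0.34 (SE), with an adjusted p of 0.0809 in edgeR. A UMI of Dntt was found in 83.9% and 83.3% of WT pDC and in 16.7% and 50.0% of KO pDC, and after thinning to 2000 UMIs in 44.8% and 36.4% against 5.00% and 12.9%. Cd209d, a C-type lectin of the DC-SIGN family, behaved alike, at 283 and 292 CPM in WT and 16.8 and 77.1 CPM in KO, a log2 difference of -2.34 ± 0.41 (adjusted p = 0.0809). Its KO 1 value rests on 2 UMIs in 1 cell, and the log2 difference was -4.03 without KO library 2. Without that library Dntt stood at -2.87. Both passed without the cells above 12000 UMIs, at adjusted p = 0.0189 for Dntt and 0.0243 for Cd209d; over the alternatives run, adjusted p ranged from 8.65e-06 to 0.232 for Dntt and from 7.48e-08 to 0.232 for Cd209d. The other genes with the smallest p among those lower were Mpc1, a mitochondrial pyruvate carrier (-1.44, adjusted p = 0.152), mt-Nd3 (-1.20, 0.314) and Hmgcs1 of sterol synthesis (-1.09, 0.314).

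Among genes higher in KO, Klf2, a quiescence and trafficking factor, had the smallest p. It was at 34.7 and 48.8 CPM in WT and at 377 and 212 CPM in KO, a log2 difference of 2.82 ± 0.43 (edgeR, adjusted p = 0.0706). Klf2 passed in 8 of 13 alternatives, among them the replicate block (2.97, adjusted p = 0.0262) and the fit without cells above 12000 UMIs (3.47, 0.000339), with adjusted p from 3.57e-08 to 0.0864 over all 13. The difference rests on few cells: 1 cell of KO 1 held 27 of its 45 UMIs and 1 cell of KO 2 held 28 of its 55, while 7 of 31 and 2 of 12 WT cells and 9 of 24 and 14 of 32 KO cells had any. Il1b was at 159 and 183 CPM in WT and 862 and 412 in KO (log2 1.89, adjusted p = 0.127). It too rests on few cells: 1 cell of KO 1 held 56 of its 103 UMIs and 1 cell of KO 2 held 70 of its 107, and the log2 difference was 1.21 (adjusted p = 0.985) without the highest doublet scores and 1.31 without KO library 1. Cxcl16 was at 24.8 and 12.2 and at 117 and 123 (2.49, 0.127), and H2-Q6 at 94.3 and 24.4 and at 310 and 220 (1.84, 0.255); H2-Q6 stood at 3.39 without WT library 1, and as a near copy of H2-Q7 its split from it is uncertain. C1qb was at 59.5 and 48.8 CPM in WT and 452 and 181 in KO (log2 2.38, adjusted p = 0.255). It passed with the replicate block (2.62, adjusted p = 0.0262) and in 6 of 13 alternatives, with adjusted p from 6.29e-06 to 0.757, and stood at 1.69 without KO library 1. Il1b, Cxcl16 and C1qb are found in macrophages, and Il1b was also higher in cDC2 than in pDC in every library, as given below. The listed macrophage markers also had a higher summed level in the KO pDC as given above. Among them C1qa was at 54.6 and 60.9 CPM in WT and 377 and 139 in KO. The part of RNA from other cells in these values was not tested.

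**Figure D5:**
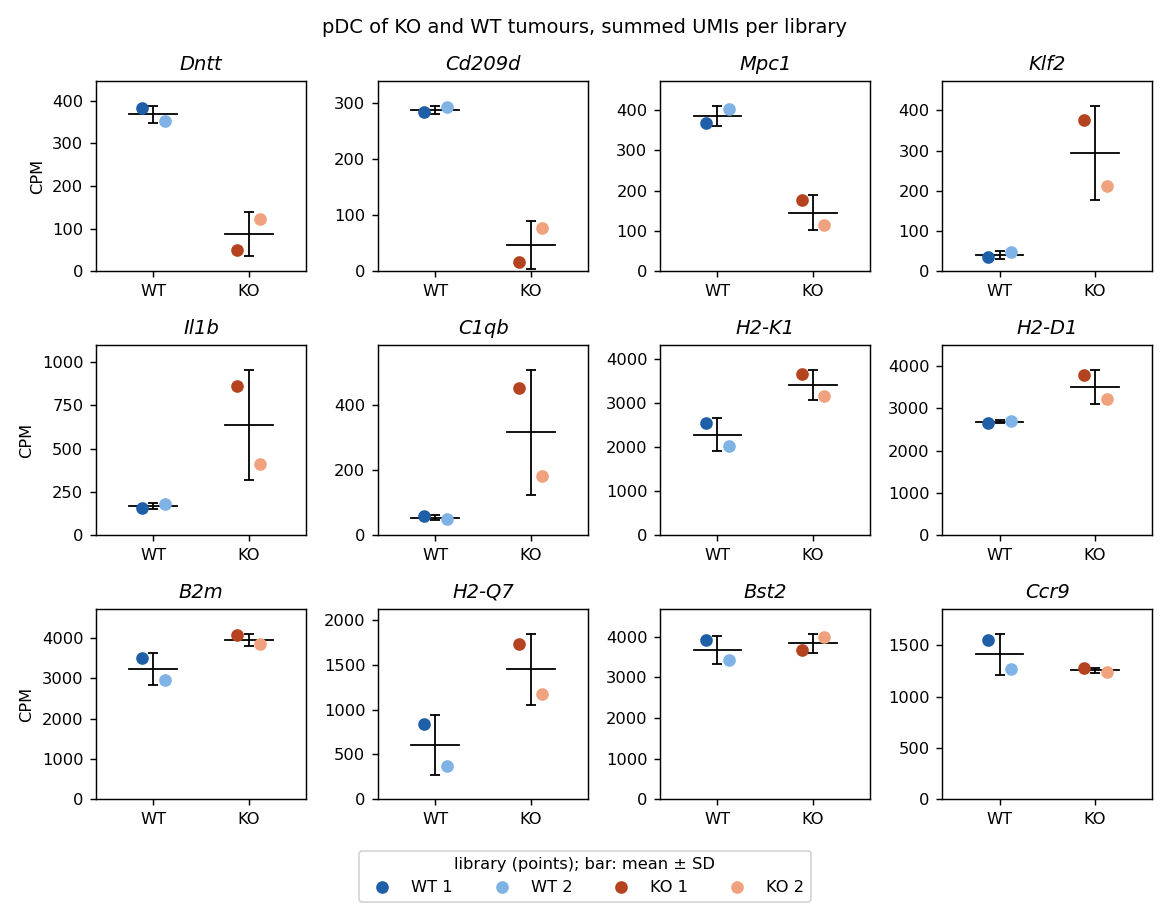
CPM of 12 genes in the pDC of each library (points), with the mean and SD of the 2 libraries per genotype (black). Dntt, Cd209d and Mpc1 lie lower in both KO libraries and Klf2, Il1b, C1qb, H2-K1, H2-D1, B2m and H2-Q7 higher, none of them at an adjusted p under 0.05, while Bst2 and Ccr9 overlap.

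By gene group, libraries that did not overlap with KO above WT made up 17.8% of all genes tested (488 of 2740), and those with KO below WT 17.6% (481). Of 17 measured MHC class I genes, 0 passed, 10 had both KO libraries above both WT libraries and 0 the reverse, with a median log2 difference of 0.29 against -0.008 over all genes. The 10 were H2-K1, H2-D1, B2m, H2-T23 and H2-Q7 of the class I chains, the peptide transporter genes Tap1 and Tap2, and the proteasome genes Psmb9, Psme1 and Psme2. H2-K1 was at 2550 and 2023 CPM in WT and 3659 and 3167 CPM in KO (log2 0.57 ± 0.18 (SE), unadjusted p = 0.00856). The list's summed level was 15640 and 13740 CPM in WT pDC and 20200 and 18110 in KO pDC. In all other barcodes of the same libraries it was 7015 and 7839 in WT and 14800 and 12980 in KO, also higher in both KO libraries; the part of RNA from other cells in the pDC values was not tested. Class II genes had 5 of 10 higher and 1 lower by that count, and type I interferon stimulated genes 0 of 9 higher and 2 lower. Of the 22 listed interferon gamma response genes only 4 were measured, with 3 higher and 0 lower. Among all other barcodes of WT 1, WT 2, KO 1 and KO 2, the class II list reached 14600, 18670, 23030 and 22860 CPM. The interferon gamma list reached 879, 1136, 3843 and 3149 CPM there. Both lists were thus higher outside the pDC as well in each KO library, and the share of such RNA in the pDC values was not tested. pDC identity genes had 4 of 36 higher and 11 lower, with a median log2 difference of -0.06. Among these 36 were Cd7 (496 and 512 CPM in WT, 234 and 281 in KO) and Hsd11b1 (89.3 and 146 CPM in WT, 301 and 173 in KO).

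Genes of mitophagy, the removal of damaged mitochondria, and of the respiratory chain were read as well. Of 8 measured mitophagy genes 0 passed, with 2 higher and 1 lower by non-overlap and a median log2 difference of -0.01. Of 16 respiratory chain genes 0 passed, with 0 higher and 3 lower and a median of -0.03. Dissociation stress genes, which digestion can induce, summed to 2674 and 4949 CPM in WT and 5970 and 2790 CPM in KO, and so overlapped.

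Lastly, the KO against WT difference in pDC was set against that in cDC2 of the same libraries, as a test of the difference itself. Of 3385 genes, 7 had a higher KO effect in pDC than in cDC2 (0.207%) and 3 a lower one (0.0886%); DESeq2 gave 1 and 2. Ly6c2 was at 2322 and 2608 CPM in WT pDC and 2487 and 2343 in KO pDC, but at 35.6 and 26.4 CPM in WT cDC2 and 284 and 270 in KO cDC2. The difference of the effects was -3.04 ± 0.42 log2 (edgeR, adjusted p = 0.000171). Plac8, a gene shared by pDC and monocytes, moved the same way, at 5452, 4254, 4053 and 4119 CPM in the pDC of WT 1, WT 2, KO 1 and KO 2 against 350, 351, 937 and 1289 in cDC2 (-1.79). In cDC2 both KO libraries lay above both WT libraries for both genes. In pDC the Ly6c2 libraries overlapped, while for Plac8 both KO libraries lay below both WT libraries. KO library 2 enters with 3 cDC2, and without it 22 genes had a higher and 11 a lower effect. Plac8 lost its call without WT library 1 (-1.45, adjusted p = 0.367), when 3 genes had a higher and 1 a lower effect.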

How the data were processed

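The deposited matrices hold raw UMI counts per gene and barcode (22620 genes), made with the 10x 3′ chemistry per the labels' protocols. Per the file headers Cell Ranger 5.0.0 wrote them. The submitters' processing notes name Cell Ranger 5.0.1, Seurat 3.15 and mm10. The labels give the molecule as genomic DNA, although the values are UMI counts of cDNA. No matrix column was without a sample.

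Barcodes under 200 genes or over 20% mitochondrial UMIs were dropped, and the rest gated on raw counts. UMIs were summed per library and gate and fitted with edgeR 4.0.16 (R 4.3.3; filterByExpr, TMM, robust quasi-likelihood test, Benjamini-Hochberg adjustment, threshold 0.05), with the library as a block between cell types. DESeq2 1.42.0 was an alternative. Shares were compared with an exact permutation test (scipy 1.17.1), and their intervals cover counting error only. The fits were tested on simulated data and recovered 87.1%, 98.95% and 100% of changed genes for KO against WT, cDC2 and cDC1. Only large changes were simulated, about as large as those of Klf2 and Cd209d, with the same spread for every gene. Neither of these genes passed between KO and WT, so the recovered shares do not give the power of that contrast. Recovery at small differences, such as that of H2-K1 between KO and WT, was not tested. Shares of cells with a UMI used cells thinned to 2000 UMIs. Floors are 3 UMIs over a group. Free RNA was not removed. Scrublet (scanpy 1.11.5) called at most 1 barcode per library and so had not worked; an alternative left out the highest scores, at 0.8% per 1000 barcodes.

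Genes named are those of the pDC, cDC, sensing, interferon, presentation, secretory, homing, receptor and tolerance lists. Beyond these they are the 10 largest changes per direction among called genes whose libraries do not overlap, or, with none called, the 5 smallest p in each direction. Other genes (such as S100a4, Cd69 and Cd86) were named after their values were seen. The pDC rule and the lists were chosen with earlier results of these data known. Leaving out cells above 12000 UMIs and the crossed block were chosen after seeing the data. Some items, the check of the targeted gene among them, are not reported here.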

Additional observations from a re-analysis of the deposited data

Results flagged for a closer look

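For 10 genes the KO against WT difference in pDC differed from that in cDC2 by a test of the difference itself (edgeR, adjusted p under 0.05). KO library 2 had 3 cDC2, so its cDC2 values rest on few UMIs. Of the 10, 8 lost their call under at least 1 alternative, and Rgs1 and Ly6c2 did not. In each sentence the values are CPM in WT 1, WT 2, KO 1 and KO 2.

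Rgs1 was at 79.4, 121.9, 578 and 200.4 in pDC and 326, 356, 146 and 89.9 in cDC2, a difference of 3.70 log2. Pltp was at 977, 1073, 1013 and 1125 in pDC and 94.97, 299, 17.2 and 0 in cDC2 (3.73). Il1b was at 159, 183, 862 and 412 in pDC and 2003, 2360, 2958 and 1858 in cDC2 (1.79), and stood at 1.02 (adjusted p = 0.593) without the highest doublet scores. Tgfbi was at 49.6, 183, 377 and 131 in pDC and 401, 400, 284 and 89.9 in cDC2 (2.57). AA467197 was at 74.4, 24.4, 201 and 131 in pDC and 1217, 1011, 550 and 899 in cDC2 (2.29). The pDC of both KO libraries lay above those of WT for Rgs1, Il1b and AA467197, while the pDC ranges of Pltp and Tgfbi overlapped. DESeq2 gave an adjusted p of 1 for Pltp, Tgfbi and AA467197 and 0.150 for Il1b. Pltp lost its call also without WT library 2 (2.89), and Tgfbi without WT library 1 (1.75) or KO library 1 (2.94). AA467197 lost it without WT library 1 (3.45), WT library 2 (1.97) or KO library 1 (1.83). Leaving out the highest doublet scores also cost Tgfbi (1.84) and AA467197 (1.81) their calls. Il1b lost its call also with no filter on low counts (2.08) and without WT library 1 (1.95) or WT library 2 (1.74).

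The histone genes H2ac8 and H2ac24 are near copies, so their split is uncertain. H2ac8 was at 0, 12.2, 50.2 and 3.85 in pDC and 344, 228, 34.4 and 0 in cDC2 (6.78), and H2ac24 at 4.96, 12.2, 16.7 and 34.7 in pDC and 629, 396, 17.2 and 59.9 in cDC2 (5.75). Both are at a few UMIs in the pDC, and the difference lies in the cDC2. Both lost their call in DESeq2 (adjusted p = 0.476 and 0.243) and without WT library 1 (4.87 and 4.69). H2ac8 lost it also without KO library 1 (8.996) and under a stricter pDC rule that also required Bst2 (6.23). H2ac24 lost it also without KO library 2 (6.14).

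Ly6c2 differed by -3.04, Plac8 by -1.79 and Ifi27l2a by -1.99 log2. Ifi27l2a was at 719, 731, 494 and 408 in pDC and 338, 391, 1023 and 869 in cDC2, so KO lay below WT in pDC and above it in cDC2. Without WT library 1 Ifi27l2a stood at -1.74 and Plac8 at -1.45, and both lost their call. In DESeq2 Ifi27l2a had an adjusted p of 0.0840. With no filter on low counts Ifi27l2a (-1.69) and Plac8 (-1.49) lost their calls as well.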

How the results depend on the processing

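The KO minus WT difference in pDC share, -0.00877 percentage points, changed sign when cells were thinned to 2000 UMIs (0.00741) and at no more than 10% mitochondrial UMIs (0.00519), and ran from -0.120 to 0.102 when 1 library at a time was left out (0.102 without WT 1, 0.0899 without KO 1). No other result listed changed direction under the alternatives run. With no filter on low counts, KO against WT in pDC gave 23 genes higher and 4 lower, 1218 genes were lower than in cDC1, and 1 gene had a lower KO effect than in cDC2. Without cells above 12000 UMIs the KO contrast gave 3 higher and 2 lower and the difference of effects 27 higher and 8 lower. DESeq2 gave 237 genes lower than in cDC2 and 1 higher difference of effects, leaving out the highest doublet scores gave 4 higher, and total counts gave 5 lower. Leaving out 1 library at a time gave 6 to 25 genes higher and 2 to 6 lower for KO against WT, 295 to 587 higher and 236 to 419 lower against cDC2, and 378 to 548 lower against cDC1. For the difference of effects it gave 3 to 22 higher and 1 to 11 lower; the lone library is then assumed to vary like the other group. The cause of these shifts was not tested. The replicate block gave 3 higher and 0 lower for KO against WT. Deviations of same-numbered libraries were not positively correlated (r = -0.102 over 2740 genes). With 2 libraries per genotype this cannot show whether the numbers pair the libraries. Crossing the pairing in the block gave 31 higher and 6 lower. Of single-gene values, 1057 kept their side of the threshold, 54 passed it and 36 fell below it. With 12 to 32 pDC per library, genes of few UMIs were not testable.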
